A study of Bos taurus with 2 samples.

Results

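Single cells of the Holstein dairy cow mammary gland were sequenced in 1 library from an adult and 1 library from a newborn animal, and the adult library is titled as lactating. A small population of the adult gland carried UMIs (counted transcript molecules) of CHGA, IL13, PTGDR2 and IL1RL1 together. Its members were the adult barcodes with at least 300 genes and at least 2 of these 4 genes detected, with no more than 1 UMI of CPA3 and MS4A2 summed (mast cell genes) and no more than 1 UMI of EPCAM and KRT8 summed (epithelial genes). Of the 15897 adult barcodes, 278 met the rule, which is 1.75% (95% exact binomial interval 1.55 to 1.96). Members were thus chosen by their UMI counts of these 4 genes and of the 4 exclusion genes, so the levels of these genes in the members are a description and support nothing. Each stage is 1 library, cells are not replicates of a stage, and no test between cell populations or stages was made. Ratios below are of CPM (a gene's UMIs summed over a population's cells and scaled to 1000000 UMIs), and all intervals are at 95% and cover counting error only.

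Type 2 immunity is the arm of the immune system known for defence against worms, for allergy and for tissue repair. Its lymphoid cells, which are T helper 2 cells and group 2 innate lymphoid cells, depend on the transcription factor GATA3 and secrete IL13, a cytokine that acts on epithelium, fibroblasts and macrophages. From work in human and mouse they are known to carry IL1RL1, the receptor of the alarmin IL33, and PTGDR2, the receptor of prostaglandin D2 also called CRTH2. T cells carry the CD3 chains of the T cell receptor, and innate lymphoid cells lack that receptor. CHGA is chromogranin A, an acidic protein of the secretory granules of endocrine and nerve cells.

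The adult library held 85388618 UMIs, with a median of 2723 per barcode, and the newborn library 65597671 UMIs with a median of 4581. The members had a median of 3987 UMIs (931 to 45399) and 1206.5 genes, and 7 of them exceeded 10000 UMIs. CSN2, the milk protein beta-casein, had UMIs in 99.97% of adult barcodes, also in barcodes of cell types that do not make milk. Where these UMIs come from was not tested. The libraries shared 57 barcode sequences, and 2 of these were members. The populations set beside the members were gates on raw UMIs: 4025 other barcodes with at least 2 of CD3D, CD3E and CD3G (the CD3 gate), 121 barcodes with NCR1 and a killer granule gene but no CD3 (the NK gate), and 27 barcodes with at least 3 CPA3 UMIs, MS4A2 and no CD3 (the mast gate).

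The rule genes were not evenly detected among the members. CHGA (ENSBTAG00000009836) was detected in 229 members (82.4%), with 729 UMIs, 582 CPM (541 to 626) and up to 19 UMIs in 1 cell. IL13 (ENSBTAG00000015953) was detected in 178 (64.0%), with 770 UMIs, 615 CPM (572 to 660) and up to 31 UMIs in 1 cell. IL1RL1 (ENSBTAG00000018571) was detected in 202 (72.7%) at 293 CPM, and PTGDR2 (ENSBTAG00000039652) in 105 (37.8%) at 103 CPM. CHGA and IL13 thus had several UMIs in many cells, while PTGDR2 had at most 3 in any cell. CYSLTR2 (ENSBTAG00000017508), a receptor of cysteinyl leukotrienes that the rule did not use, was detected in 75 members (27.0%) at 99.8 CPM. Members were 1.75% of the barcodes and held 77.0% of the library's CHGA UMIs, 68.8% of its IL13, 51.2% of its PTGDR2 and 48.5% of its IL1RL1 UMIs.

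**Figure D1:**
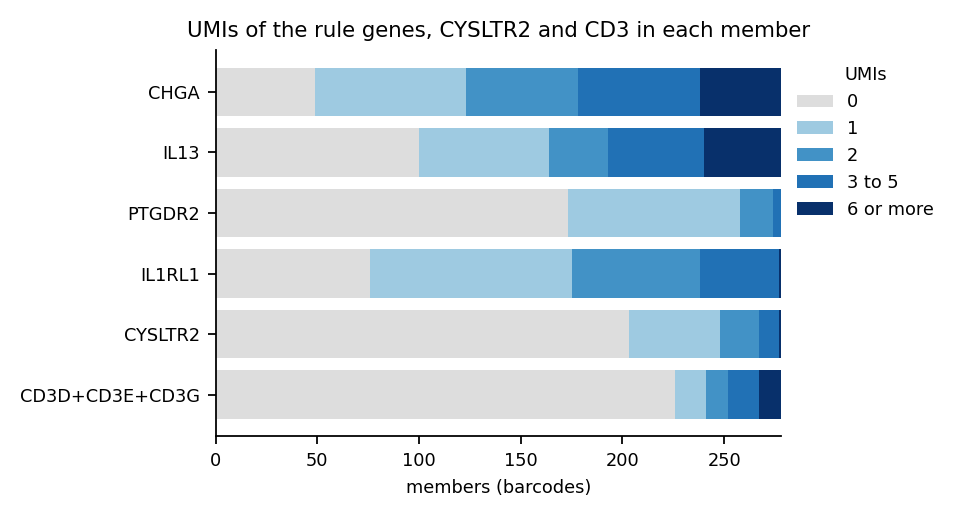
Number of the 278 members (x axis) with 0, 1, 2, 3 to 5, or 6 or more UMIs of each rule gene, of CYSLTR2 and of CD3D, CD3E and CD3G summed. CHGA and IL13 have 40 and 38 members with 6 or more UMIs, and CD3 is at 0 UMIs in 226 members.

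Most members had 2 rule genes (151 cells), 96 had 3 and 31 had all 4. The most frequent pair was CHGA with IL1RL1 (65 cells), followed by the triple CHGA, IL13 and IL1RL1 (46 cells). To see a rule gene in cells it had not chosen, each was left out in turn and cells were taken by at least 2 of the other 3. CHGA was then detected in 112 of 161 cells (69.6%, 61.8 to 76.6), against 15 of 3975 CD3-gate barcodes with none of the other 3 (0.377%). IL13 was detected in 51.7% (44.7 to 58.7) of 207 such cells against 0.577%, PTGDR2 in 31.9% (26.2 to 38.0) of 254 against 0.402%, and IL1RL1 in 59.6% (52.2 to 66.7) of 188 against 0.277%. Each gene of the rule was therefore found together with the others in cells selected without it. The median depths were 4004 to 4112.5 UMIs in the selected cells and 3064 to 3065 in the CD3 gate.

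Genes outside the rule were detected more often in barcodes with rule genes. To compare at equal depth, the barcodes that met the gene, mast and epithelial limits were thinned to 1000 UMIs. TNFSF14, the cytokine LIGHT, was detected in 9.50% of barcodes with no rule gene, 37.2% with 1, 71.8% with 2, 64.6% with 3 and 83.9% with 4. GATA3 was detected in 4.47%, 18.6%, 35.6%, 42.7% and 51.6% of the same groups. UMIs of CD3 went the other way, from 46.8% with no rule gene and 32.8% with 1 to 9.40% with 2, 5.21% with 3 and 3.23% with 4. The barcodes with 1 rule gene, just outside the limit of 2, lay between both sides, so the limit runs through a gradient of detection. Full depth also differed, with medians of 2686 UMIs at 0 rule genes and 4465 at 4.

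**Figure D2:**
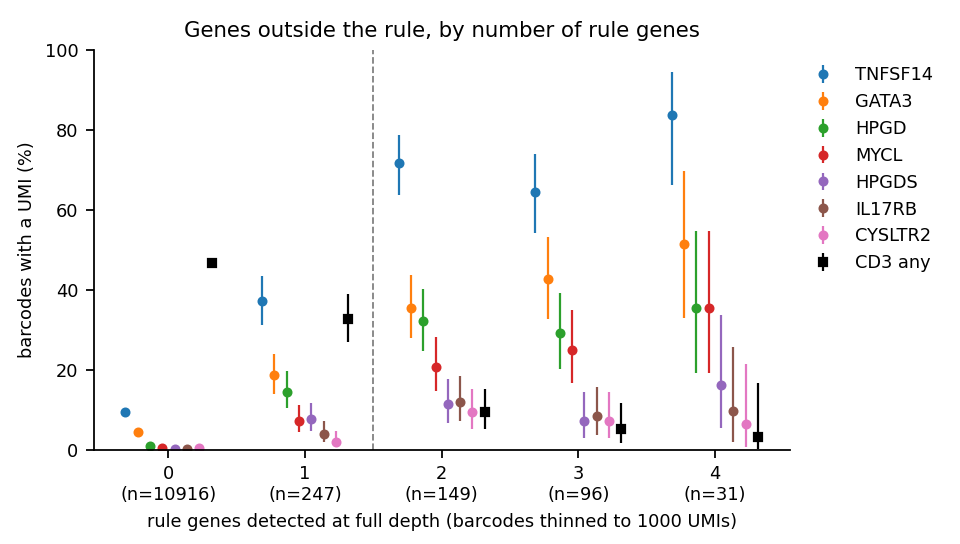
Share of adult barcodes with a UMI (y axis, %) of genes outside the rule and of any CD3 gene (black squares), by the number of rule genes detected, after thinning to 1000 UMIs, with 95% exact binomial intervals. Barcodes to the right of the dashed line have enough rule genes for membership, and TNFSF14 goes from 9.50% at 0 to 83.9% at 4 rule genes.

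When all 14691 adult barcodes that passed the gene limit and had at most 20% mitochondrial UMIs were clustered without the rule and exclusion genes, 245 of 276 members (88.8%) fell into 1 of 30 clusters. This cluster held 405 cells, of which members were 60.5%, and was led by CHGA, IL13, IL1RL1, HPGDS and MYCL. Among its 160 cells that were not members, GATA3 was detected in 69.4% and TNFSF14 in 90.0%. Of these, 41 had no rule gene detected at all, and they had TNFSF14 in 85.4% and GATA3 in 65.9% at a median of 2810 UMIs. The rule therefore left out cells that clustered with the members. Outside it, 12 members lay in a cluster led by lymphatic endothelial genes such as RELN and FLT4 and 5 in a cluster led by IL7R, ICOS and CD4.

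CD3 UMIs were found in a minority of the members. Of the 278 members, 52 (18.7%, 14.3 to 23.8) held at least 1 CD3E, CD3D or CD3G UMI, and 226 held none. CD3E was in 50 cells, CD3D in 20 and CD3G in 1, and 15 of the 52 cells had a single CD3 UMI, 11 had 2 and 26 had 3 or more. The same measure was taken in gates of cell types that lack the T cell receptor. CD3 UMIs were in 18.4% of 2108 endothelial-gate barcodes (median 4169.5 UMIs) and in 22.0% of 304 fibroblast-gate barcodes (median 3122.5 UMIs). After thinning to 1000 UMIs the share was 7.25% (4.48 to 11.0) in the members, 6.23% (5.23 to 7.37) in the endothelial gate, 7.20% in the epithelial gate and 79.2% in the CD3 gate. Cells with 3 or more CD3 UMIs at full depth were 9.35% (6.20 to 13.4) of the members and 8.30% (7.16 to 9.56) of the endothelial gate. At full depth CD3 UMIs were also in 21.7% of neutrophil-gate, 28.9% of epithelial-gate, 36.0% of macrophage-gate and 39.8% of B cell-gate barcodes. Median depths in these gates ran from 980.5 to 14432 UMIs. The members' full-depth share was thus just above the endothelial share and below the fibroblast, neutrophil, epithelial, macrophage and B cell shares. After thinning it was slightly above the endothelial and epithelial shares. Summed CD3 UMIs were at 153 CPM (132 to 177) in the members and 1377 CPM in the CD3 gate. They were at 75.5 CPM (71.3 to 79.9) in the endothelial, 40.8 CPM in the epithelial, 122 CPM in the fibroblast and 202 CPM in the macrophage gate. Neither expression of CD3 in the members nor its absence is read from these values. Whether some of the 52 cells express CD3 was not tested.

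The 52 members with CD3 UMIs had a higher median depth than the other 226, at 5655 UMIs against 3853.5. A doublet score computed with Scrublet placed 23 of 52 (44.2%, 30.5 to 58.7) among the top-scoring 12.7% of barcodes with at least 300 genes. Of the 226, 18 (7.96%, 4.79 to 12.3) were among them. These top-scoring barcodes are called likely doublets. The 12.7% (1896 barcodes) is a rate assumed from the library's number of barcodes, and Scrublet's automatic threshold marked only 315. Of 2207 genes compared, 41 (1.86%) were at least 4-fold higher with CD3 UMIs and 6 (0.272%) at least 4-fold lower. CTSW, a protease of killer lymphocytes, had 516 CPM with and 8.72 CPM without CD3 UMIs (59.2-fold, 29.4 to 139), and XCL1, a chemokine of killer lymphocytes, had 155 and 4.36 CPM. The complement genes C1QA, C1QB and C1QC, which macrophages make, were also higher, but 1 cell held all their UMIs in the members with CD3. With the likely doublets left out, the 4-fold limit was passed by 8 genes that were higher and 34 that were lower with CD3 UMIs. This left out 23 of the 52 cells with CD3 UMIs and 18 of the 226 without. Shares of all genes compared were not computed for it, so these counts cannot be set beside the 1.86% and 0.272%.

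GATA3 was detected in 82.7% of members with and 81.0% without CD3 UMIs, at 492 and 620 CPM. IL13, which like PTGDR2 is a rule gene, was detected in 65.4% and 63.7%. In CPM all 4 rule genes were lower with CD3 UMIs. PTGDR2 had 38.8 CPM (20.7 to 66.3) against 126 CPM (104 to 152). IL13 had 693 CPM in the members without CD3 UMIs and 615 CPM in all 278 members. CHGA had 644 and 582 CPM, and IL1RL1 324 and 293 CPM, in the same groups. The 278 include the 226, so these pairs understate the difference between members with and without CD3 UMIs. Per cell, the mean was 2.58 IL13 UMIs with and 2.81 without CD3 UMIs, and 2.65 and 2.62 CHGA UMIs. Of the 52 cells, 4 had CD4 and no CD8 UMIs, 10 had CD8A or CD8B and 38 had neither. CD2, an adhesion receptor of T and NK cells, had 4 UMIs and CD96 none in the 226 members without CD3 UMIs.

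**Figure D3:**
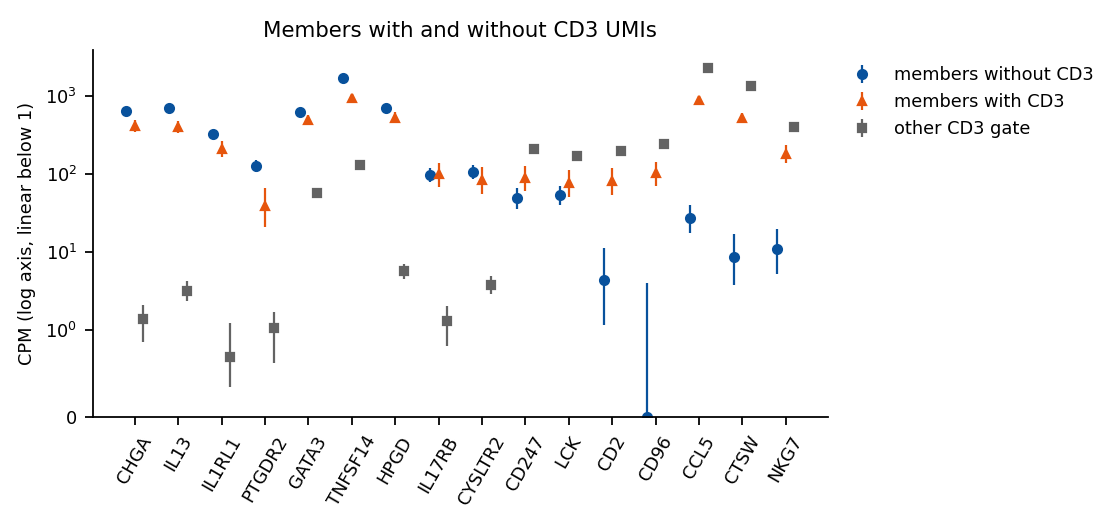
Level in CPM (y axis, log scale, linear below 1) of rule genes, other type 2 genes and T or killer cell genes in the 226 members without CD3 UMIs, the 52 members with them and the 4025 barcodes of the CD3 gate, with 95% exact Poisson intervals. GATA3 and TNFSF14 lie above the CD3 gate in both groups of members, and CTSW and CD96 separate the groups.

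The members differed widely from the CD3 gate. Of 2378 genes that reached 50 CPM and 20 UMIs in the higher population, 76 (3.2%) were at least 4-fold higher in the members and 90 (3.78%) at least 4-fold lower, with a median log2 ratio over all these genes of -0.03. Those higher outside the rule included HPGDS, HPGD, IL17RB, CYSLTR2 and GATA3, and those lower included GNLY and CTSW. With the 226 members without CD3 UMIs alone, 92 genes (3.82%) were higher and 114 (4.73%) lower, which included 75 of the 76 and all 90. Against CD4 barcodes alone (446), 64 of 2466 genes (2.6%) were higher and 96 (3.89%) lower, and against CD8 barcodes (665), 93 of 2461 (3.78%) were higher and 103 (4.19%) lower. The 15 genes with the largest ratios in each direction against the CD3 gate are plotted with their intervals.

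**Figure D4:**
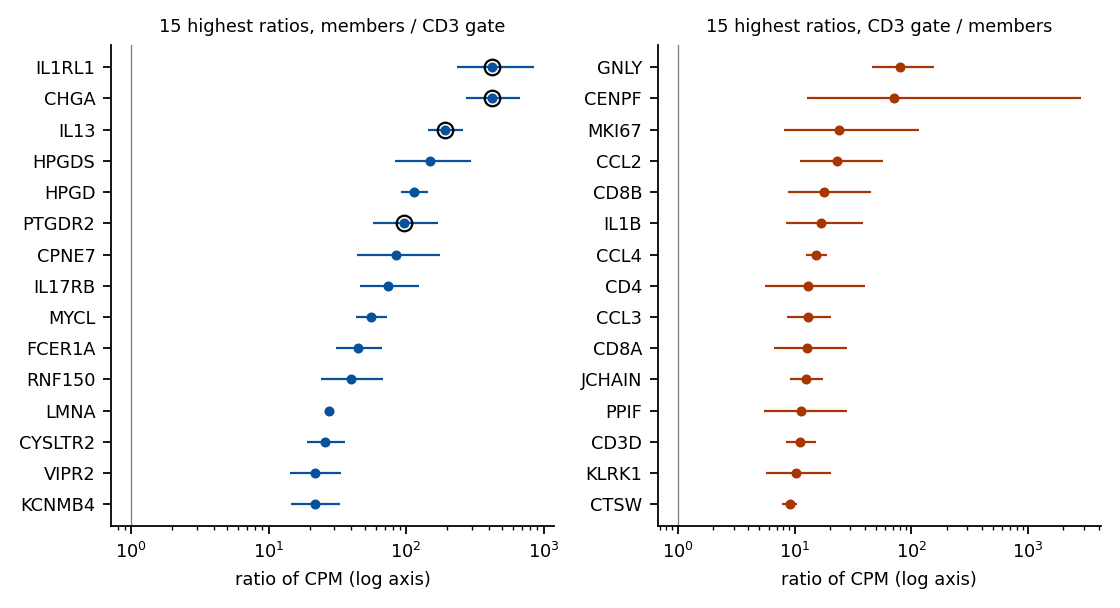
Ratio of CPM (x axis, log scale) between members and the CD3 gate for the 15 genes with symbols that were highest in the members (left) and the 15 highest in the CD3 gate (right), with 95% conditional binomial intervals. Circled points are rule genes, HPGDS and HPGD lead the genes outside the rule at 149-fold and 114-fold, and GNLY leads the right side at 80.2-fold.

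HPGDS, the synthase that makes prostaglandin D2 in blood-forming cells, had 142 UMIs in 102 members (36.7%), at 113 CPM (95.5 to 134) against 0.759 CPM in the CD3 gate (149-fold, 82.9 to 296). HPGD, which breaks prostaglandins down, had 813 UMIs in 169 members (60.8%), at 649 CPM against 5.69 CPM (114-fold, 91.7 to 143). TBXAS1, the thromboxane synthase, had 35.1 CPM against 1.45 CPM (24.2-fold, 14.3 to 41.9). PTGDS, the other prostaglandin D synthase, was at 38.3 CPM in the members and 36.2 CPM in the CD3 gate, whereas the epithelial gate had 863 CPM. Of 27 genes for the synthesis and sensing of such lipids, 6 were measured at the 50 CPM limit, of which 4 were at least 4-fold higher and none was at least 2-fold lower, where 3.2% of all 2378 measured genes were 4-fold higher and 8.7% 2-fold lower. One of these 4 is PTGDR2, which the rule used. PTGS2, the inducible cyclooxygenase upstream of these enzymes, had 6.39 CPM in the members against 21.0 CPM in the CD3 gate.

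Several receptors were also higher in the members. IL17RB, the receptor subunit for IL25, had 98.2 CPM in the members against 1.33 CPM in the CD3 gate (74.0-fold, 46.3 to 124). CYSLTR2 had 99.8 CPM against 3.86 CPM (25.9-fold, 18.9 to 35.8), and its relative CYSLTR1 had 22.4 CPM against 1.96 CPM. VIPR2, a receptor of vasoactive intestinal peptide, had 51.1 CPM against 2.34 CPM (21.8-fold, 14.4 to 33.7), and FCER1A, a chain of the high-affinity IgE receptor of mast cells and basophils, 105 CPM against 2.34 CPM (44.7-fold, 30.8 to 66.3). IL2RA, a subunit of the interleukin 2 receptor, had 121 CPM against 18.0 CPM (6.74-fold, 5.50 to 8.23). IL7R, which lymphoid cells need for survival, was in 92.1% of members at 1140 CPM, against 611 CPM in the CD3 gate and 82.3 CPM in the NK gate. It did not set the members apart from CD4 barcodes, which had 1130 CPM.

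Of the transcription factors of type 2 lymphoid cells, GATA3 had 734 UMIs in 226 members (81.3%), at 586 CPM (544 to 630) against 57.1 CPM in the CD3 gate (10.3-fold, 9.29 to 11.3). Thinned to 1000 UMIs it was detected in 39.9% of members and 5.66% of the CD3 gate. RORA, needed for group 2 innate lymphoid cells in mouse, had 168 CPM against 42.9 CPM, and AHR, a sensor of small aromatic molecules, had 67.1 CPM against 10.9 CPM. ID2, which restrains B and T cell fates, was alike at 552 and 550 CPM (ratio 1.00, 0.927 to 1.08). MYCL, a relative of MYC, had 265 CPM against 4.74 CPM (55.9-fold, 43.4 to 72.8). The whole list of type 2 identity genes and receptors held 43 genes, of which 20 were measured: 10 were at least 2-fold higher, 3 at least 2-fold lower, and the median log2 ratio was 1.33, where 8.66% of all 2378 measured genes were 2-fold higher and 8.7% lower. The 10 include both IL1RL1 and PTGDR2 of the rule. ICOS, KIT and CXCR6 were the 3 lower ones, at 27.9, 76.7 and 41.5 CPM against 70.4, 159 and 152 CPM. KLRG1, a surface receptor of activated group 2 innate lymphoid cells, was in 7.55% of members.

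TNFSF14, a tumour necrosis factor family cytokine, was in 264 members (95.0%) at 1476 CPM (1409 to 1544), against 131 CPM in the CD3 gate (11.3-fold, 10.6 to 12.02) and 188 CPM in the neutrophil gate. TNFRSF18, the costimulatory receptor GITR, was in 147 members at 374 CPM against 37.9 CPM (9.85-fold, 8.71 to 11.1). Of 21 costimulation and checkpoint genes, 8 were measured, of which 3 were at least 2-fold higher and 4 at least 2-fold lower, where 8.66% and 8.7% of all measured genes were. The inhibitory receptor LAG3 had 2.40 CPM in the members against 36.7 CPM in the CD3 gate, and CTLA4, another one, 0.798 CPM against 28.4 CPM, both below the 50 CPM limit and so not among the 8. LMNA, which encodes lamins of the nuclear envelope, was in 84.2% of members at 1940 CPM against 70.8 CPM (27.4-fold, 25.5 to 29.4). CPNE7, RNF150 and KCNMB4 completed the 15 highest, at 58.3, 52.7 and 55.1 CPM in the members and at most 2.53 CPM in the CD3 gate.

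Among secreted type 2 products the pattern was narrow. Of IL4, IL5, IL9 and IL13, the main type 2 cytokines, IL13 alone exceeded 50 CPM in the members, and the rule used it. IL5, which recruits eosinophils, had 1 UMI in the whole library, in a member, and IL4 had 3 UMIs in the members (2.40 CPM) against 38.5 CPM in CD4 barcodes. IL9 was detected in 0 of 278 members, which allows a share of cells with a UMI of up to 1.08%. CSF1 and CSF2, growth factors of macrophages and other myeloid cells, had 101 CPM against 15.8 CPM and 42.3 CPM against 5.75 CPM in the CD3 gate. CSF1 was in 48 members, of which 10 held 57.9% of its UMIs, and the 53 CSF2 UMIs were in 17 members. AREG, an epithelial growth factor made by group 2 innate lymphoid cells in mouse, had 26.3 CPM against 27.5 CPM (ratio 0.958, 0.651 to 1.37).

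Killer and T cell genes were low in the members. All but 1 of the 10 measured killer granule genes were at least 2-fold lower than in the CD3 gate, and none was 2-fold higher, where 8.7% of all 2378 measured genes were 2-fold lower and 8.66% 2-fold higher. GNLY, the pore-forming granulysin, had 12 UMIs in 10 members at 9.58 CPM against 769 CPM (80.2-fold lower, 45.9 to 155), CTSW had 145 CPM against 1308 CPM, and NKG7 56.7 CPM against 401 CPM. Of 14 measured genes of the T cell receptor complex and its partners, 11 were at least 2-fold lower and none 2-fold higher, which the CD3 genes that define the gate partly fix. LAT, an adaptor protein downstream of the receptor, had 92.6 CPM against 84.3 CPM. Of 7 measured type 1 and type 17 genes, 6 were at least 2-fold lower and AHR was at least 2-fold higher, to be read against the same shares of all genes. Interferon gamma (IFNG) had 13.6 CPM against 96.1 CPM. MKI67 and CENPF, genes of dividing cells, had 3 and 1 UMIs in all members.

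CHGA stood nearly alone among genes of endocrine and nerve cells. Of 31 such genes, 17 had no UMI in any member, including CHGB, SYP and SST, and CHGA was the only one above 50 CPM. CHGA is a rule gene, so its level in the members is partly fixed by the rule. In the 161 cells chosen by at least 2 of the other rule genes it had 477 CPM (429 to 528). INSM1, a transcription factor of endocrine cells, had 33 UMIs in 21 members (7.55%), 1 UMI in the CD3 gate, and none in the endothelial, epithelial and fibroblast gates. TH, the rate-limiting enzyme of dopamine synthesis, had 25 UMIs in 25 members at 20.0 CPM, but 440 CPM in the mast gate. GCH1, which makes the cofactor of TH, was in 62.6% of members at 474 CPM against 43.9 CPM in the CD3 gate and 578 CPM in the mast gate. By the ratio of the shares of detected cells between members and CD3 gate, the genes outside the rule closest to CHGA were HPGDS (134-fold), CPNE7 (84.2-fold), MYCL (65.7-fold) and IL17RB (64.3-fold), taken over these 2 populations. This ranks share ratios only and does not measure detection in the same cells as CHGA.

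Against the NK gate, 160 of 2411 genes (6.64%) were at least 4-fold higher in the members and 125 (5.18%) at least 4-fold lower. HPGD was at least 99.9-fold higher, taken against 3 UMIs over the NK gate, where it had none. SPON2, a secreted matrix protein, had 455 CPM against 6.50 CPM, and CREB3L1, a transcription factor of the secretory pathway, 219 CPM against 4.33 CPM. NKG2A and GNLY were lower, at 0.798 CPM against 373 CPM and 9.58 CPM against 1878 CPM. The NK gate asked for a killer granule gene, which partly fixes the level of such genes there. GATA3 had 47.7 CPM and TNFSF14 178 CPM in the NK gate, against 586 and 1476 CPM in the members.

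Against the mast gate, 175 of 2071 genes (8.45%) were at least 4-fold higher and 51 (2.46%) at least 4-fold lower, with only 27 barcodes in that gate. Several genes that were high in the members were also high in the mast gate: HPGD had 649 CPM in the members and 918 CPM in the mast gate, IL17RB 98.2 and 327 CPM, VIPR2 51.1 and 138 CPM, HPGDS 113 and 251 CPM, and FCER1A 105 and 591 CPM. TNFSF14 was 23.5-fold higher in the members than in the mast gate (10.0 to 72.4), where it had 5 UMIs in 1 barcode. GATA3 was 15.5-fold higher (5.30 to 75.5) against 3 UMIs, and TNFRSF18 29.7-fold higher (5.31 to 1176) against 1 UMI. Of the 16 mast cell genes in the files, 4 had no UMI in the members, among them MS4A2, the IgE receptor beta chain that the rule limited, and HDC, which makes histamine. TPSB2, a mast cell tryptase, had 3 UMIs, and LTC4S, the leukotriene C4 synthase, had 17.6 CPM against 2276 CPM. The 30 barcodes that the mast limit removed included 18 with CHGA, 23 with GATA3, 23 with TNFSF14 and 8 with TPSB2, and all had CPA3. A wider mast gate of 294 barcodes, which asked for at least 3 CPA3 UMIs and no CD3 UMI but not for MS4A2, gave 126 genes (5.2%) at least 4-fold higher in the members and 160 (6.6%) lower.

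**Figure D5:**
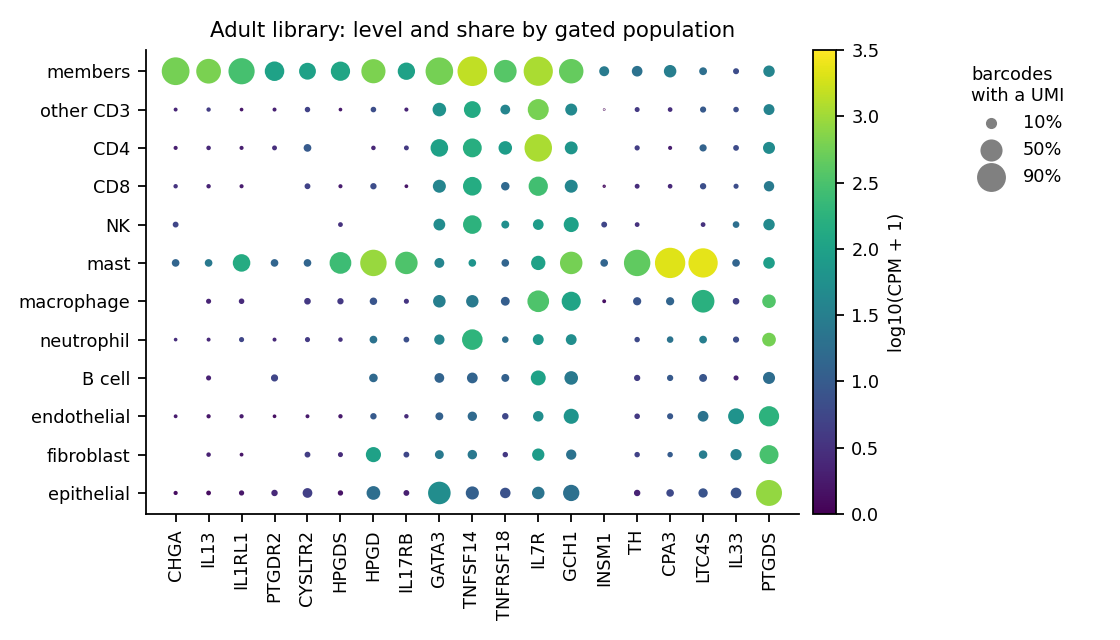
Genes (x axis) in 12 gated populations of the adult library (y axis): dot area gives the share of barcodes with a UMI and colour the level as log10(CPM + 1). CHGA, IL13 and PTGDR2 are high in the members, HPGDS, HPGD, IL17RB and GCH1 are high in the members and the mast gate, and IL33 is highest in the endothelial gate at 62.4 CPM.

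Among the ligands of these receptors, IL33 had 62.4 CPM (58.5 to 66.4) in the endothelial gate, 32.5 CPM in the fibroblast gate, 6.86 CPM in the epithelial gate and 5.59 CPM in the members. IL25 and VIP, ligands of IL17RB and VIPR2, had no UMI in any of these gates. IL7, the ligand of IL7R, had 7.28 CPM in the endothelial gate. Of the cells that could sense IL13, its receptor subunit IL13RA1 had 127 CPM in the neutrophil gate, 72.7 CPM in the macrophage gate, 60.5 CPM in the fibroblast gate and 24.6 CPM in the epithelial gate.

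Genes of other cells and of tissue handling also differed between members and CD3 gate. Immediate early and heat shock genes, which the digestion of tissue is known to induce, summed to 31716 CPM in the members and 13602 CPM in the CD3 gate, with 9 of 23 measured genes at least 2-fold higher and 2 at least 2-fold lower, where the shares of all measured genes were 8.66% and 8.7%. JUN had 4818 CPM against 1313 CPM and DUSP1 2185 CPM against 478 CPM. The 13 endothelial genes, all of them detected, summed to 1070 CPM (1013 to 1129) in the members, 710 CPM in the CD3 gate and 756 CPM in the NK gate. The lymphatic genes CCL21 and MMRN1 were in 12.6% and 15.8% of members, and 10 cells held 94.7% of the CCL21 UMIs. Milk protein genes summed to 16807 CPM against 23521 CPM. The part of these differences in the gene results was not tested.

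Members with and without IL13 UMIs were alike in most genes. Of 2288 genes, 32 (1.4%) were at least 4-fold higher in the 178 members with IL13 and 5 (0.219%) at least 4-fold lower. The highest after IL13 itself included LTBP1, CCL21 and IGFBP7, which had UMIs in 14, 27 and 15 of the 178 cells. Splitting by CHGA, 43 of 2073 genes (2.07%) were at least 4-fold higher in the 229 members with CHGA and 13 (0.627%) at least 4-fold lower. The higher ones after CHGA itself were led by CCL21, RAMP2 and LYVE1, which had UMIs in 33, 31 and 23 of the 229 cells. The lower ones were led by C1QB, C1QA and C1QC, which had UMIs in 2, 1 and 1 of the 49 members without CHGA.

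In the newborn library the same rule found 20 barcodes of 13772 (0.145%, 0.0887 to 0.224), after 22 of 42 with at least 2 rule genes were removed for mast genes. CHGA was in 12 of them at 288 CPM (191 to 416), against 582 CPM in the adult members, and IL13 in 15 at 535 CPM (399 to 701) against 615 CPM. GATA3 had 658 CPM, TNFSF14 1244 CPM, TNFRSF18 1172 CPM and HPGDS 586 CPM, against 110, 83.5, 207 and 2.20 CPM in the 60 barcodes of the newborn CD3 gate. Of the 11 adult genes named as highest outside the rule, 10 were also higher in the newborn members than in the newborn CD3 gate and 1, CPNE7, had no UMI. Of the 10, FCER1A rested on 1 UMI and RNF150 and KCNMB4 on 3 UMIs each. The intervals of FCER1A, RNF150, KCNMB4 and VIPR2 overlapped those of the newborn CD3 gate. The share of all genes that were higher in the newborn members was not computed. Of the 15 named as lowest in the adult members, 10 were also lower in the newborn members, but 12 had no UMI there, and CCL2 was higher at 4329 CPM against 3643 CPM. The 10 lower ones include CD3D, whose level the CD3 gate partly fixes. CD3 UMIs were in 4 of the 20 (20.0%, 5.73 to 43.7). The rule genes were less confined to these cells: members held 9.42% of the newborn IL13 UMIs and 0.438% of the IL1RL1 UMIs, and the fibroblast gate had 75.1 CPM of IL1RL1. Stage, animal and library cannot be told apart.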

How the data were processed

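Tissue was minced, digested with hyaluronidase, collagenases and DNase, strained and, where too few cells were alive, cleared of dead cells, per the labels' protocols. Libraries used the 10x Genomics V3 3' chemistry. The authors deposited raw UMI counts per gene and barcode. Per the file headers and the submitters' processing notes, Cell Ranger 3.1.0 made them. For the genome build, annotation and cell calling, the settings were not given in the sources used here; coordinates and sequences are therefore not printed. The files held 27270 genes, 19730 with a symbol, and 29669 barcodes, and the study states 24472 cells without a filter to compare. The members and gene lists were chosen with earlier results of these data known, and the endothelial, epithelial, fibroblast, macrophage, neutrophil and B cell gates were added after seeing the data.

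Members were taken by the stated rule on raw UMIs. CD4 barcodes were CD3-gate barcodes with CD4 and no CD8A or CD8B. UMIs were summed per population and scaled to CPM. A gene was measured where its higher population reached 50 CPM and 20 UMIs, and was counted from a ratio of 4, and a count of 0 was set to 3 UMIs over that population. Named genes were the 15 largest ratios each way against the CD3 gate and the 8 largest against the NK and mast gates and for the CD3 split, with a symbol and leaving out milk, mitochondrial and ribosomal protein genes. Members of the gene lists were named where they reached 50 CPM or had a role in the group described. Intervals were exact Poisson, Clopper-Pearson (exact binomial) or conditional binomial. Thinning drew 1000 UMIs per barcode and left out 2 members. Clustering ran the Leiden algorithm (leidenalg 0.10.2, resolution 1) on 15 nearest neighbours from 30 components of 2000 variable genes. Doublets were scored with Scrublet in scanpy 1.11.5. They were not removed from the main results, and the alternative removed the top 12.7%, an assumed rate. On data simulated from these populations with 8-fold changes, the 4-fold count recovered 100% of higher and 99% of lower genes against the CD3 gate (2083 genes tested), but only 20% of lower genes against the mast gate (2035 genes tested). Of genes left unchanged, 22 passed the 4-fold limit against the mast gate, 1 against the NK gate and 0 against the CD3 gate. Counts were drawn from each gate's summed profile with counting error only. Differences between cells were not simulated, so the recovery does not cover them.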

Additional observations from a re-analysis of the deposited data

How the results depend on the processing

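No paired analysis was possible because each stage is 1 library. The number of members was within 1.5 times of 278 except with at least 3 rule genes (127) and with CHGA left out of the rule (161). The share of members with CD3 UMIs was 12.2% without likely doublets, 13.3% counting only cells with at least 2 CD3 UMIs, and 3.96% and 7.25% after thinning to 500 and 1000 UMIs. It was 14.9% at 2000 UMIs. Against the CD3 gate, counts of 4-fold genes stayed within 1.5 times of 76 and 90 under all other alternatives run, and rose to 137 higher and 156 lower with limits of 20 CPM and 10 UMIs. Between members with and without CD3 UMIs, 10 genes were lower with at least 2 CD3 UMIs against none. Without likely doublets 8 were higher and 34 lower, an alternative chosen after seeing the data. Shares of all genes compared were not computed for it. A mast gate of at least 3 CPA3 UMIs and no CD3 UMI, without the MS4A2 limit, also chosen after seeing the data, held 294 barcodes and gave 126 higher and 160 lower genes. Levels of the 30 named genes kept their direction against the CD3 gate in all alternatives run, and at most 13 of them, without likely doublets, left their counting interval. The 30 include the 4 rule genes and CD3D, whose direction the rule and the gate partly fix. The members of each alternative were also a subset of the 278 from which the 30 were picked, so the kept direction is no independent support. Depth limits low genes: IL5 had 1 UMI in the library, so its absence from other members cannot be shown. The mast gate's 27 barcodes limit that comparison, and cells lost in digestion were not measured.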
